A study of Arabidopsis thaliana with 14 samples.

Results

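The late-only strong falls in Col-0 are 117 probe sets of the Affymetrix ATH1 array whose signal was low after 6 h of the synthetic auxin NAA but not yet after 2 h. They were chosen from Col-0 values alone, on a scale of log2(signal + 19) averaged over the arrays of a group. A probe set belonged if its 2 h mean lay within 0.5 of the 0 h mean, its 6 h mean lay at least 1.5 below the 0 h mean (a 2.83-fold fall), and its 6 h mean lay at least 1.5 below the mean of the 6 h mock treatment. It also had to exceed a signal of 218 on both arrays of at least 1 group, slr-1 groups included. Of the 22746 probe sets other than controls, 14883 did, and 3 members did so only in slr-1 at 0 h. All 117 therefore passed the filter on dim probe sets, and they made up 0.786% of those tested.

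The arrays held RNA from Arabidopsis thaliana roots, from the stretch between the root meristem and the hypocotyl, and about 1500 seedlings were harvested per time point. Seedlings of every group, mock and 0 h included, were 3 days old and had germinated on NPA at 10 µM, which blocks the transport of auxin. There were 7 groups of 2 arrays, with treatments described as biologically repeated. The mutant slr-1 was sampled after 0 h, 2 h and 6 h on 10 µM NAA, and the wild type Col-0 was sampled after 6 h of mock treatment and after 0 h, 2 h and 6 h on 10 µM NAA. No slr-1 mock group was among the samples. The description field of both mock samples carries text about wing discs of an insect, while their source name and extraction protocol name the root segment, and they were used as Col-0 mock.

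Auxin acts through Aux/IAA proteins, which hold auxin response factors inactive until auxin triggers their breakdown. The slr-1 mutation is a gain-of-function change in the Aux/IAA protein IAA14 that makes it resist this breakdown, and slr-1 plants form no lateral roots. Germination on NPA keeps root segments free of lateral roots, and a move to NAA then induces pericycle cells along the segment to divide together, so the segment of Col-0 enters lateral root formation in step while that of slr-1 does not. Much of the segment consists of differentiated epidermis, cortex, endodermis and vascular tissue, whose products include secreted lipid-binding proteins, wall-modifying enzymes and defence metabolites.

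The annotation table gave 57 of the 117 probe sets exactly 1 gene, 2 probe sets several genes and 58 none. Of the 57 genes, 12 carried a symbol and 45 only a locus code, and 1 (AT3G17110) is listed as a pseudogene. The genes lay on all 5 nuclear chromosomes, with 14, 7, 10, 14 and 12 on chromosomes 1 to 5. Only a single pair, AT2G04800 and AT2G04850, lay close together, with 5 protein-coding genes between them.

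Every array had been scaled to the same trimmed mean of 1000.1. Between the 2 arrays of a group the log2 levels of the 117 members correlated with r of 0.883 (Col-0 6 h) to 0.97 (slr-1 6 h) taken over probe sets, which do not replicate each other. A pair of slr-1 arrays stood apart from the others. Replicate 2 of slr-1 at 0 h had a GAPDH 3' to 5' ratio of 1.16, against 0.546 to 0.742 elsewhere. Replicate 2 of slr-1 at 6 h had a highest signal of 29349.7, against 58837.1 or more elsewhere. Its 6 members with a signal above 10000 on replicate 1 were all lower on replicate 2, with a median ratio of 0.611, and the ratio was 0.995 for the other members. Among all probe sets tested, 478 of 485 such bright probe sets were lower on replicate 2, with a median ratio of 0.721. Median changes without either array are given below. In tissue samples such as these, fewer cells of a type and less RNA per cell cannot be told apart.

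In Col-0 the members' median level on the log2(signal + 19) scale was 10.32 in mock, 9.98 at 0 h, 9.80 at 2 h and 7.98 at 6 h of NAA. The median change was -0.28 at 2 h and -1.97 at 6 h against 0 h, and -2.11 at 6 h of NAA against mock. Over all probe sets tested these medians were -0.05, -0.10 and -0.09. Single members spanned -4.24 to -1.503 at 6 h against 0 h. These values chose the members, so they are a description. A change of at most -1.5 was reached by 5.78% of all tested probe sets against 0 h and by 5.43% against mock. In 116 members both 6 h arrays lay below both 0 h arrays, a separation that 42.7% of all tested probe sets shared, and in all 117 they lay below both mock arrays, which 41.7% of all tested shared. After 6 h of NAA, 50 members were at or below a signal of 218 on both arrays, against 7 at 0 h. With 19 added before the logarithm, changes of signals near 19 are compressed, and 4 members were below 19 on both Col-0 6 h arrays.

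**Figure D1:**
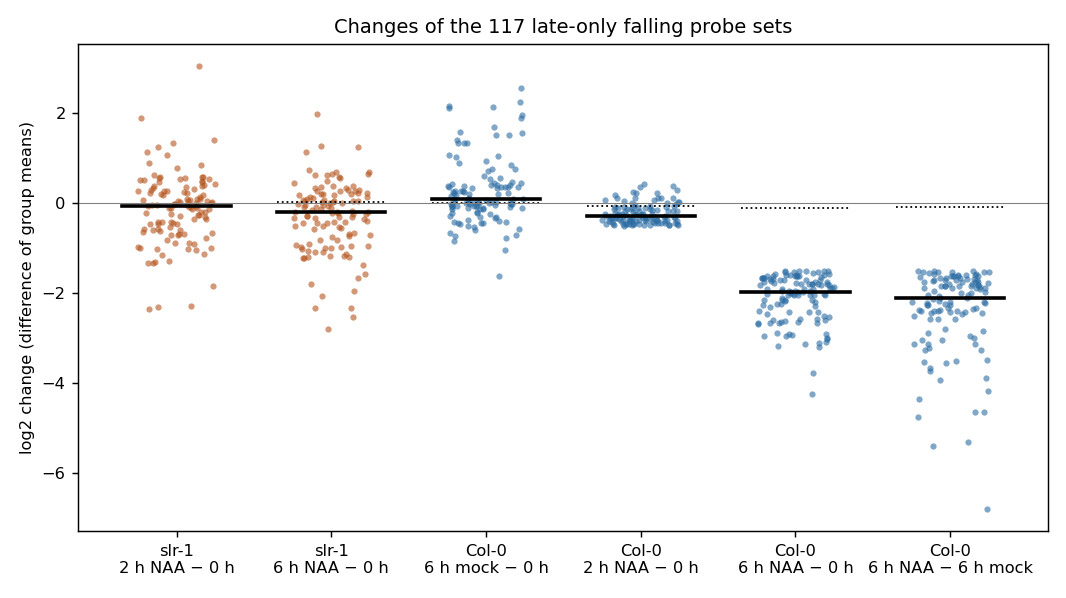
Log2 changes of the 117 late-only falling probe sets in 6 comparisons, 1 point per probe set, with slr-1 in orange and Col-0 in blue. Solid bars are the members' medians and dotted bars the medians of all 14883 probe sets tested. The Col-0 NAA columns were set by the choice of members. The slr-1 columns scatter around medians of -0.05 at 2 h and -0.20 at 6 h.

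AT3G19370 was just inside at -1.51 for 6 h against 0 h, and a probe set just outside had -1.49. MCCB was just inside at -1.504 against mock, and AT1G01170 just outside at -1.48. At the bound on the 2 h change, AT5G09760 was just inside at -0.498 and AT1G66890 just outside at -0.502. At the upper bound, AT4G11190 was inside at 0.39, while BCAT4, a branched-chain aminotransferase that starts the chain elongation of methionine for aliphatic glucosinolates, was outside at 0.54 with a 6 h change of -2.60. Of the 117 members, 31 met all conditions when any 1 of the 8 Col-0 arrays was left out. A larger group of 461 probe sets met the same 6 h conditions but was already below -0.5 at 2 h.

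The slr-1 arrays took no part in the fold conditions, so the slr-1 changes could be tested. They were tested with limma across all 14883 probe sets, with Benjamini-Hochberg adjustment over all of them, and every adjusted p below comes from this fit. After 6 h of NAA in slr-1, 21 of the 117 members were lower than at 0 h (17.9%), where 6.26% of all tested probe sets were called lower. Another 6 members were higher (5.13%), where 7.96% of all tested were called higher. The other 90 did not pass the threshold. At an unadjusted limma p under 0.05 the counts were 32 lower and 10 higher. All tested probe sets were not counted at that threshold, so these counts have no share to be set against. The median change of the members in slr-1 was -0.20, against 0.02 for all probe sets tested, and single members spanned -2.79 to 1.98. The slr-1 median amounted to 10.1% of the Col-0 median. The rule required a fall in Col-0 but not in slr-1, so this low share is partly built in. Without slr-1 0 h replicate 2 the members' median was -0.274, against 0.003 for all tested. Without slr-1 0 h replicate 1 it was -0.281, against 0.024. Without slr-1 6 h replicate 2 it was -0.147, against 0.014, and without slr-1 6 h replicate 1 it was -0.204, against 0.045. In each of these fits fewer probe sets passed, among the members as among all tested.

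By size, 9 members had a change of -1.5 or lower in slr-1 after 6 h, where 0.759% of all tested did. A further 31 lay between -1.5 and -0.5, 64 lay within 0.5 of zero, and 13 were at 0.5 or above, where 16.4% of all tested were. Both slr-1 6 h arrays lay below both slr-1 0 h arrays for 48 members, a separation seen in 25.6% of all tested, and above them for 25, a separation seen in 28.1%. The arrays of the other 44 overlapped, as they did for 46.3% of all tested. After 6 h of NAA both slr-1 arrays lay above both Col-0 arrays for 104 members, below for 5 and overlapped for 8. Over all tested probe sets, 40.4% lay above and 29.9% below. That comparison holds the Col-0 6 h arrays that chose the members, so it is a description. Of the 21 members called lower in slr-1, 18 were still above Col-0 on both arrays at 6 h.

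**Figure D2:**
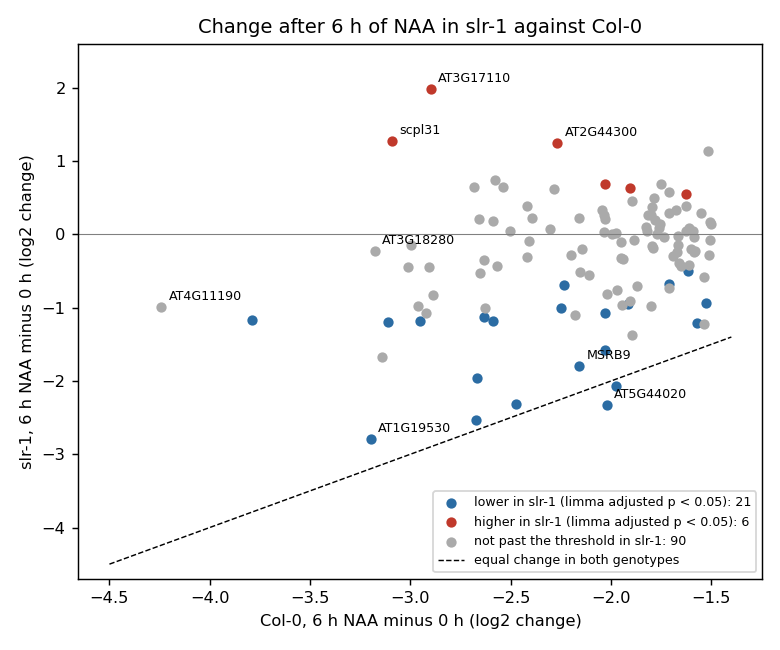
Log2 change from 0 h to 6 h of NAA in slr-1 (vertical) against Col-0 (horizontal) for the 117 members, 1 point each. Blue marks the 21 called lower in slr-1, red the 6 called higher and grey the 90 not past the threshold. The dashed line marks equal change. Most points lie far above it, and AT1G19530, AT5G44020 and MSRB9 lie near it. No point has a Col-0 change above -1.5 because the rule excluded those.

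The genes with a known role were sorted into 4 kinds from general knowledge, after their values had been seen, so the counts below are descriptions. In slr-1 after 6 h, 6.26% of all tested probe sets were called lower and 7.96% higher. The kinds are small, and none was tested against these shares. Small secreted proteins numbered 6, with slr-1 changes of -0.99 to 1.25 and Col-0 changes of -4.24 to -1.78. In slr-1 none of the 6 was called lower and 1 was called higher. AT4G11190, a dirigent-like protein of the family that guides the coupling of phenolic radicals, had the largest Col-0 change of all members. Its signals in slr-1 were 347 and 789 at 0 h, 267 and 364 at 2 h and 220.3 and 294 at 6 h, and in Col-0 they were 3687 and 4549 in mock, 656 and 696 at 0 h, 595 and 1336 at 2 h and 16.9 and 18.6 at 6 h. All Col-0 NAA 6 h values lay far below every other array, and the mock arrays were the highest. The slr-1 change at 6 h was -0.99 (SE 0.38, adjusted p = 0.0999), which did not pass the threshold, although both arrays at 6 h lay below those at 0 h. The Col-0 change was -4.24 against 0 h and -6.81 against mock.

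Lipid transfer proteins, small secreted proteins that bind lipids and are found in waxy and suberised walls, supplied 4 of these 6 genes. AT3G18280 had signals in slr-1 of 15683 and 15611 at 0 h, 14066 and 17615 at 2 h and 16252 and 11029.8 at 6 h. In Col-0 it had 15138 and 15572 in mock, 16313 and 12634 at 0 h, 12290.2 and 10652 at 2 h and 1817 and 1355 at 6 h. Its Col-0 6 h NAA arrays lay far below all the others. Its change was -0.22 (SE 0.21, adjusted p = 0.521) in slr-1, against -3.18 in Col-0. The same shape was seen for AT3G53980, with 29755 and 26309 at 0 h, 30680.0 and 32622 at 2 h and 29109 and 14452 at 6 h in slr-1. On the Col-0 arrays it had 29152 and 42459.5 in mock, 34522 and 36831 at 0 h, 30204 and 24198 at 2 h and 6754 and 3320.1 at 6 h. The lowest of its 6 slr-1 arrays was the replicate with few bright signals, and the slr-1 change of -0.45 (SE 0.33, adjusted p = 0.412) did not pass.

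AT2G44300, another lipid transfer protein, went the other way in slr-1. On the slr-1 arrays it had 1063 and 1243 at 0 h, 4549 and 4176 at 2 h and 2584 and 2943 at 6 h. Signals in Col-0 were 1404 and 1849 in mock, 2268 and 2109.6 at 0 h, 2116 and 2107 at 2 h and 470.3 and 410.4 at 6 h. In slr-1 both later time points lay above 0 h on both arrays, while in Col-0 the 6 h arrays lay below all others. The rise in slr-1 was 1.91 (SE 0.16, adjusted p = 7.17e-06) at 2 h and 1.25 (SE 0.16, adjusted p = 0.000266) at 6 h, against a Col-0 change of -2.27 at 6 h. AT1G62510, also of this family, was uneven between slr-1 replicates, with 80.1 and 422 at 0 h, 492 and 272 at 2 h and 298 and 181 at 6 h, and its slr-1 change of 0.27 (SE 0.62, adjusted p = 0.821) did not pass. In Col-0 it had 394 and 236 in mock, 127 and 67.9 at 0 h, 136 and 67.8 at 2 h and 9.2 and 7.9 at 6 h. Its slr-1 replicates at 0 h lay further apart than the means of the slr-1 time points did. AT4G25790, a secreted protein of the CAP and PR-1-like family, had a log2 change of 0.20 (SE 0.78, adjusted p = 0.902) in slr-1, against -1.78 in Col-0.

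Cell wall and secreted enzymes numbered 11, with slr-1 changes of -1.22 to 1.28 and Col-0 changes of -3.09 to -1.53. In slr-1, 2 were called lower, 2 higher and 7 did not pass. The serine carboxypeptidase-like gene scpl31 had slr-1 signals of 829 and 685 at 0 h, 775 and 1485 at 2 h and 1442 and 2386 at 6 h. Its Col-0 signals were 677 and 629 in mock, 1013 and 453 at 0 h, 480.2 and 486 at 2 h and 40.2 and 94.5 at 6 h. Both slr-1 6 h arrays lay above both 0 h arrays and both Col-0 6 h arrays lay below theirs. The rise in slr-1 was 1.28 (SE 0.40, adjusted p = 0.046), and 12 of 23 alternative settings lost the call. The Col-0 change was -3.09. AT5G09760, of the pectin methylesterase and inhibitor family that adjusts pectin charge and stiffness, rose in slr-1 by 0.68 (SE 0.18, adjusted p = 0.0205), against a Col-0 change of -2.03. Signals in slr-1 were 1383 and 1901 at 0 h, 2088 and 2045 at 2 h and 2390.5 and 2866 at 6 h, and its Col-0 signals were 1548 and 1388 at 0 h, 1096 and 972 at 2 h and 341 and 348 at 6 h. The rise was smaller than the Col-0 difference, and 3 of 23 settings lost the call.

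Among the wall enzymes, the subtilase SBT4.12, a secreted protease, and AT1G31710, a copper amine oxidase that makes hydrogen peroxide from polyamines, fell in slr-1. SBT4.12 had slr-1 signals of 8229 and 7777 at 0 h, 4779 and 6018 at 2 h and 4474 and 3903 at 6 h, and Col-0 signals of 11138 and 10265 in mock, 7558 and 5577 at 0 h, 5956 and 6204 at 2 h and 2292 and 2195 at 6 h. In both genotypes the 6 h arrays were the lowest, and at 6 h slr-1 lay above Col-0. Its change was -0.93 (SE 0.16, adjusted p = 0.00203) in slr-1, against -1.53 in Col-0. AT1G31710 had a slr-1 change of -0.69 (SE 0.20, adjusted p = 0.0328), which 4 of 23 settings lost, against a Col-0 change of -2.24. AT4G33420, a class III peroxidase of the kind that cross-links wall phenolics, gave 13252 and 13346 at 0 h, 14182 and 16972 at 2 h and 17003 and 12059 at 6 h in slr-1. In Col-0 it gave 9835 and 7559.9 in mock, 8802 and 10183 at 0 h, 12925 and 9588 at 2 h and 2765 and 2551 at 6 h. Its level was high on every array but those of Col-0 at 6 h of NAA, and its slr-1 change was 0.11 (SE 0.20, adjusted p = 0.774).

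The remaining wall genes did not pass in slr-1 after 6 h. The beta-glucosidase BGLU44 had a log2 change of -0.44 (SE 0.20, adjusted p = 0.155) in slr-1, against -3.01 in Col-0. PMEPCRF, a pectin methylesterase, was nearly level in slr-1 with 1920.1 and 2127 at 0 h, 2866 and 2056 at 2 h and 1926 and 2069.8 at 6 h, a change of -0.02 (SE 0.24, adjusted p = 0.973). In Col-0 PMEPCRF had 3728 and 3838 in mock, 3643 and 3116 at 0 h, 3511 and 1913 at 2 h and 1197 and 919 at 6 h. XTH19, a xyloglucan endotransglucosylase that cuts and rejoins wall xyloglucan, was dim, with slr-1 signals of 222 and 336 at 0 h, 93.1 and 12.1 at 2 h and 147 and 75.7 at 6 h. On the Col-0 arrays it had 43.4 and 93.5 in mock, 134 and 22.3 at 0 h, 93.4 and 30.2 at 2 h and 4.5 and 13.0 at 6 h. It exceeded 218 on both arrays only in slr-1 at 0 h, and its slr-1 change of -1.22 (SE 0.81, adjusted p = 0.351) did not pass. AT5G41870, of the pectin lyase-like superfamily, and AT5G07030, an aspartyl protease, had slr-1 changes of 0.26 and 0.09. The Col-0 changes of these genes were -1.80 and -1.61.

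**Figure D3:**
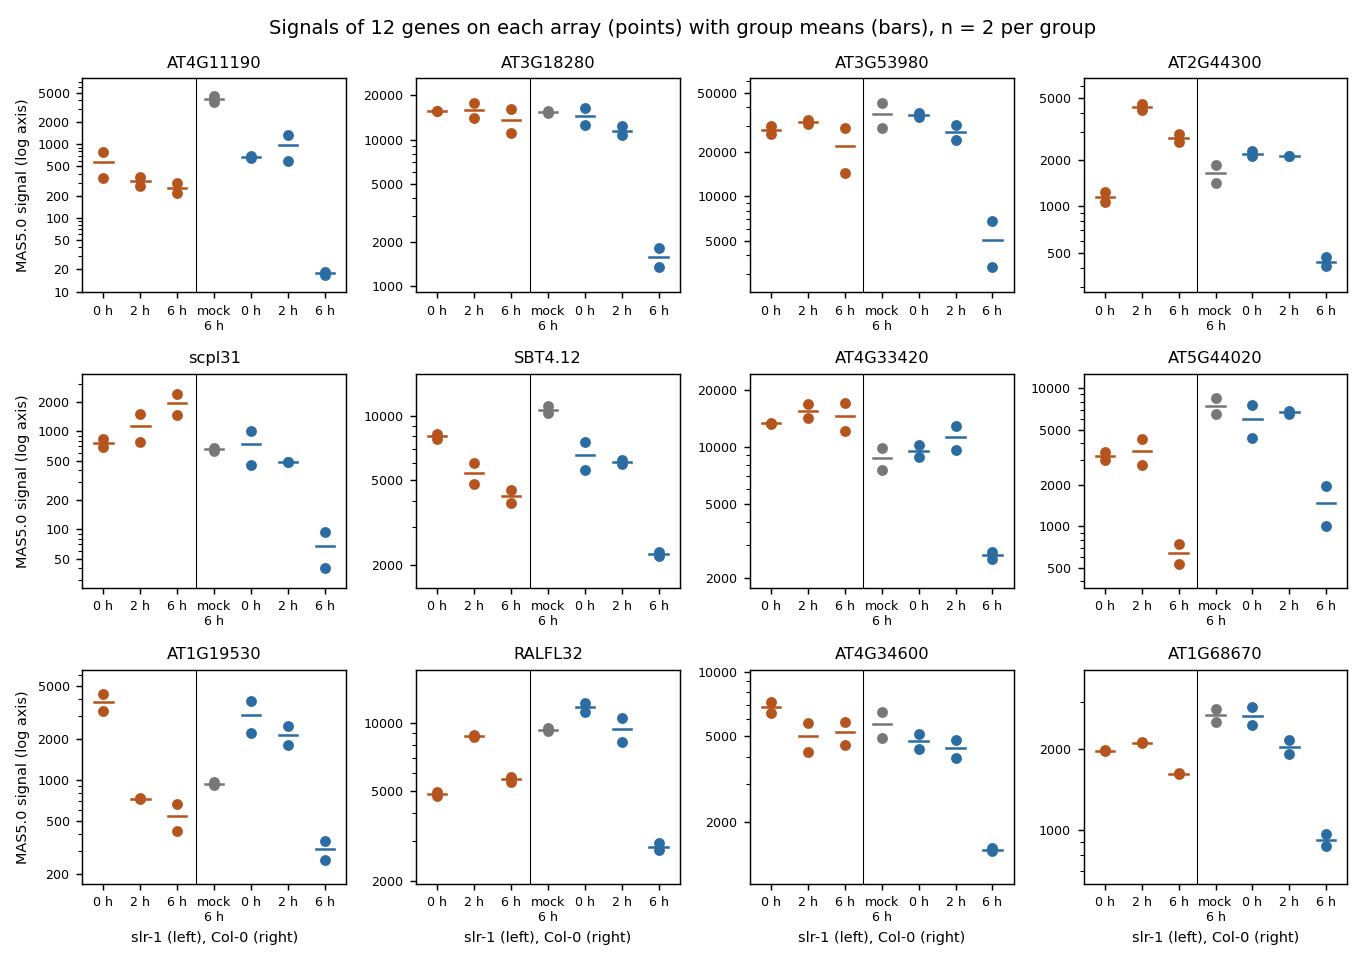
MAS5.0 signals of 12 members on every array, on log axes, with slr-1 in orange to the left of the line and Col-0 to its right (mock in grey, NAA in blue). Points are the 2 arrays of a group and bars their means. In every panel both Col-0 6 h arrays lie below both mock arrays, both 0 h arrays and both 2 h arrays. In slr-1, AT2G44300 and scpl31 are higher at 6 h than at 0 h, and AT5G44020, AT1G19530 and SBT4.12 are lower.

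Metabolic and transport genes numbered 9, with slr-1 changes of -2.33 to 0.04 and Col-0 changes of -2.96 to -1.69. In slr-1, 3 of them were called lower and none higher. AT5G44020, an acid phosphatase family protein, was low late in both genotypes. Its slr-1 signals were 3038 and 3453 at 0 h, 2795 and 4273 at 2 h and 536 and 743 at 6 h. In Col-0 they were 6456 and 8458 in mock, 7526 and 4378 at 0 h, 6536 and 6876 at 2 h and 1949 and 1003 at 6 h. The slr-1 arrays at 6 h lay below the Col-0 arrays at 6 h. AT5G44020 fell in slr-1, with a log2 change of -2.33 (SE 0.31, adjusted p = 0.000393) against 0 h and of -2.42 (SE 0.31, adjusted p = 0.00301) against 2 h, while the value at 2 h against 0 h was 0.09 (SE 0.31, adjusted p = 0.887). The Col-0 change at 6 h was -2.02.

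MSRB9, a methionine sulfoxide reductase that repairs oxidised methionine in proteins, had slr-1 signals of 521 and 668 at 0 h, 290.2 and 230.5 at 2 h and 178 and 138 at 6 h. Signals in Col-0 were 338 and 313 in mock, 298 and 329 at 0 h, 386 and 121 at 2 h and 79.9 and 36.9 at 6 h. It was higher in slr-1 than in Col-0 at 0 h, and at 6 h the lowest arrays were again those of Col-0. The slr-1 change was -1.79 (SE 0.43, adjusted p = 0.0136), a call that 2 of 22 settings lost, against a Col-0 change of -2.16. MCCB, the beta subunit of the 3-methylcrotonyl-CoA carboxylase that acts in leucine breakdown, fell in slr-1, with a change of -0.91 (SE 0.17, adjusted p = 0.00272) at 2 h and -0.95 (SE 0.17, adjusted p = 0.00207) at 6 h. On the slr-1 arrays it had 4913 and 4929 at 0 h, 2342 and 2922 at 2 h and 2152 and 2986 at 6 h, and its Col-0 signals were 3654 and 3226 in mock, 4760.4 and 4401 at 0 h, 3711 and 3274 at 2 h and 1155 and 1243 at 6 h. In slr-1 the 2 h and 6 h arrays overlapped and both lay below 0 h, whereas the Col-0 6 h arrays lay below those at 2 h.

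AT2G31790, a UDP-glucosyltransferase of glucosinolate synthesis, differed in mock and between genotypes as well. Signals in slr-1 were 3533 and 4295 at 0 h, 1688 and 2248 at 2 h and 2111 and 1847 at 6 h. In Col-0 they were 4504 and 2389.7 in mock, 1117 and 908 at 0 h, 581 and 1017 at 2 h and 75.1 and 165 at 6 h. Every slr-1 array lay above every Col-0 array treated with NAA, and the 2 mock replicates were far apart. The slr-1 change of -0.97 (SE 0.34, adjusted p = 0.0746) did not pass, and 6 of 23 alternative settings brought it past the threshold. UGT85A4, a glycosyltransferase, had a log2 change of -0.53 (SE 0.37, adjusted p = 0.372) in slr-1, against -2.65 in Col-0. AT4G00910, of the aluminium-activated malate transporter family, had a log2 change of 0.04 (SE 0.33, adjusted p = 0.952) in slr-1, against -2.50 in Col-0. AT3G56200, an amino acid transporter family member, and AT1G48690, of the GH3 family, had slr-1 changes of -0.16 and -0.30, and neither passed. Their Col-0 changes were -1.79 and -1.69. SETH3, a sugar-phosphate isomerase family gene, had a log2 change of -0.07 (SE 0.28, adjusted p = 0.896) in slr-1, against -1.88 in Col-0.

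Signalling and transcription genes numbered 7, with slr-1 changes of -0.55 to 0.63 and Col-0 changes of -2.11 to -1.51. In slr-1 after 6 h, none was called lower and 1 was called higher. RALFL32, a member of the RALF family of secreted peptides that act through receptor kinases on cell growth, peaked at 2 h in slr-1. Its slr-1 signals were 4949 and 4762 at 0 h, 8805 and 8619.8 at 2 h and 5769 and 5502 at 6 h, and its Col-0 signals were 9184 and 9456 in mock, 11169 and 12201 at 0 h, 10514 and 8254 at 2 h and 2944 and 2739.7 at 6 h. At 0 h the slr-1 arrays were below those of Col-0, and at 6 h of NAA they were above. RALFL32 rose in slr-1 by 0.84 (SE 0.14, adjusted p = 0.00124) at 2 h, and its 6 h value was 0.21 (SE 0.14, adjusted p = 0.335) against 0 h. The fall between 2 h and 6 h, -0.63 (SE 0.14, adjusted p = 0.0426), was lost in 13 of 23 settings.

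AT4G34600 encodes the precursor of a Casparian strip integrity peptide, which is made in the stele and helps seal the endodermal barrier. On the slr-1 arrays it had 6409 and 7234 at 0 h, 4248 and 5793 at 2 h and 5866 and 4567 at 6 h. In Col-0 it had 6477 and 4895 in mock, 5133 and 4388 at 0 h, 4838 and 3981 at 2 h and 1515 and 1462 at 6 h. The low level was confined to the 2 Col-0 6 h NAA arrays among the 14, and the slr-1 change was -0.39 (SE 0.19, adjusted p = 0.193). AT2G46600, a calcium-binding EF-hand protein, rose in slr-1 by 0.59 (SE 0.15, adjusted p = 0.0232) at 2 h and 0.63 (SE 0.15, adjusted p = 0.0148) at 6 h, against a Col-0 change of -1.91 at 6 h. Signals in slr-1 were 2031 and 2294 at 0 h, 3551 and 2983 at 2 h and 3393 and 3309 at 6 h, and its Col-0 signals were 2404 and 2348 at 0 h, 1956 and 2523 at 2 h and 644 and 597 at 6 h. The genotypes thus started at similar levels and ended apart, and 3 of 23 settings lost each of the slr-1 calls.

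Transcription factors among the members were AGL21, a MADS-box factor linked to lateral root growth, tny (TINY), an AP2/ERF factor of the DREB type, and AT1G68670, a MYB-like factor of the GARP family. AGL21 had a log2 change of 0.17 (SE 0.38, adjusted p = 0.81) in slr-1, against -1.51 in Col-0. The change of tny was -0.55 (SE 0.28, adjusted p = 0.206) in slr-1, against -2.11 in Col-0, where mock lay 1.02 above 0 h. AT1G68670 had slr-1 signals of 1977 and 1963 at 0 h, 2116 and 2105 at 2 h and 1606 and 1619.5 at 6 h. Its Col-0 signals were 2527 and 2831 in mock, 2449 and 2860.2 at 0 h, 2161 and 1907 at 2 h and 867 and 964 at 6 h. Its slr-1 replicates agreed closely, and the change of -0.29 (SE 0.13, adjusted p = 0.181) did not pass. AT5G63710, a leucine-rich repeat receptor-like kinase, had a log2 change of 0.14 (SE 0.18, adjusted p = 0.663) in slr-1, against -1.76 in Col-0.

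The other 24 genes are given no role here, and 4 of them were called lower and 1 higher in slr-1 after 6 h. AT1G19530 had slr-1 signals of 3240.1 and 4364 at 0 h, 720.3 and 731 at 2 h and 419 and 664 at 6 h. On the Col-0 arrays it had 913 and 962 in mock, 3843 and 2232 at 0 h, 1816 and 2503 at 2 h and 257 and 356 at 6 h. In slr-1 the fall was present by 2 h, whereas in Col-0 the 2 h arrays overlapped those at 0 h, and the mock arrays were also below 0 h. The slr-1 change was -2.34 (SE 0.27, adjusted p = 0.000101) at 2 h and -2.79 (SE 0.27, adjusted p = 4.98e-05) at 6 h. In Col-0 it was -3.20 at 6 h, and mock minus 0 h was -1.62. This was the lowest mock value of all members.

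AT5G18490 fell in slr-1, with a change of -1.21 (SE 0.20, adjusted p = 0.00133), against a Col-0 change of -1.57. AT1G72070 fell in slr-1 too, with changes of -1.03 (SE 0.30, adjusted p = 0.0375) at 2 h and -1.19 (SE 0.30, adjusted p = 0.0172) at 6 h, against a Col-0 change of -2.95 at 6 h. The 2 h call was lost in 10 of 22 settings and the 6 h call in 3. AT1G21440 changed by -1.18 (SE 0.37, adjusted p = 0.0459) in slr-1, and 12 of 23 settings lost that call. The pseudogene AT3G17110 had the largest rise, with slr-1 signals of 294 and 81.8 at 0 h, 1494 and 1410.5 at 2 h and 669.6 and 698 at 6 h. In Col-0 it had 442 and 481 in mock, 681 and 877 at 0 h, 738 and 753 at 2 h and 113 and 66.1 at 6 h. The slr-1 0 h arrays were dim and uneven, and every later slr-1 array lay above them. Its slr-1 change was 3.05 (SE 0.39, adjusted p = 0.000185) at 2 h and 1.98 (SE 0.39, adjusted p = 0.00408) at 6 h, against a Col-0 change of -2.90 at 6 h.

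Several genes with large Col-0 changes did not pass in slr-1. AT5G43180 had slr-1 signals of 7499.9 and 6206 at 0 h, 5622 and 8683 at 2 h and 6346 and 6058 at 6 h. Signals in Col-0 were 6013 and 5660.4 in mock, 5049 and 4614 at 0 h, 5429 and 4675 at 2 h and 771 and 448 at 6 h. The slr-1 arrays overlapped across times, and only Col-0 at 6 h of NAA was low. Its change was -0.14 (SE 0.23, adjusted p = 0.744) in slr-1, against -3.00 in Col-0. AT2G40530 and AT3G01430 had slr-1 changes of -1.08 and 0.21, with neither past the threshold, against Col-0 changes of -2.92 and -2.66. Leaving out 1 array moved the slr-1 value between -1.998 and -0.154 for AT2G40530 and between -0.422 and 0.834 for AT3G01430. Among members with 1 gene, the slr-1 values nearest zero at 6 h were those of PMEPCRF, AT5G57345, AT4G17250, AT1G32740 and AT4G00910, which were -0.02, 0.03, -0.03, -0.04 and 0.04. For AT4G17250 the value lay between -1.085 and 1.018 on leaving out 1 array, so it is not well fixed.

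After 2 h of NAA in slr-1, 9 members were called lower (7.69%), where 5.45% of all tested were, and 7 were called higher (5.98%), where 6.86% of all tested were. The median was -0.05, equal to that of all tested at 2 decimals. Without slr-1 2 h replicate 1 the members' median was 0.002, against -0.042 for all tested. Without slr-1 0 h replicate 2 it was -0.104, against -0.064. In both fits fewer probe sets passed, among the members as among all tested. Both 2 h arrays lay below both 0 h arrays in 39 members, where 30.3% of all tested did, and above them in 26, where 22.5% did. AT4G16980, an arabinogalactan protein family member, rose at 2 h in slr-1, with slr-1 signals of 493 and 352 at 0 h, 1281 and 701 at 2 h and 583 and 521 at 6 h. Its change was 1.15 (SE 0.27, adjusted p = 0.0136) at 2 h and 0.39 (SE 0.27, adjusted p = 0.383) at 6 h, and its Col-0 change was -2.42 at 6 h. The 2 h call was lost in 3 of 23 settings. Between 2 h and 6 h in slr-1, 5 members were lower (4.27%), where 0.753% of all tested were, and none was higher, where 0.464% were. At an unadjusted limma p under 0.05, 1 member was higher, and all tested were not counted at that threshold. The members' median was -0.234 without slr-1 2 h replicate 1, against 0.051 for all tested, and -0.104 without replicate 2, against 0.047. It was -0.126 without slr-1 6 h replicate 1, against 0.077, and -0.163 without replicate 2, against 0.041. In each of these fits fewer probe sets passed, among the members as among all tested. Of the 21 members lower at 6 h, 8 were also lower at 2 h and 3 were lower at 6 h against 2 h. Of the 117 members, 85 passed in none of the 3 slr-1 comparisons. In each comparison most of all tested probe sets did not pass either, and their share passing in none was not computed.

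After 6 h of mock treatment in Col-0, the level minus that at 0 h was at least 0.5 in 28 members, where 10.4% of all tested reached that size, and at most -0.5 in 10, where 9.66% did. These values share arrays with the rule, so no test is given. The 28 had a median mock minus 0 h of 1.34 and a median 6 h NAA minus mock of -3.52, and their median slr-1 change at 6 h was -0.38. The medians that involve mock reuse the arrays by which the 28 were picked, so their direction is partly built in. The other 79 lay within 0.5, and the median over all 117 was 0.10. For AT4G11190 mock minus 0 h was 2.57, for AT2G31790 it was 1.69, for AT1G62510 1.53 and for AT1G21440 1.33. The shift in mock ranged from -1.62 to 2.57 over the members.

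The level at 0 h, before NAA, is described next for the genotypes without a test, since the Col-0 0 h arrays chose the members. The median of slr-1 minus Col-0 at 0 h was -0.21, against 0.01 for all tested. In 9 members slr-1 was higher by 1.5 or more, where 1.51% of all tested were, and in 9 it was lower by 1.5 or more, where 1.65% were. The 9 higher ones had a median difference of 2.35 and a median slr-1 change at 6 h of -1.17. They also had a median mock minus 0 h of 1.69 in Col-0. Both medians reuse the 0 h arrays by which the 9 were picked, so their direction is partly built in. AT1G21440 had slr-1 signals of 10936 and 13482 at 0 h, 5883 and 9938 at 2 h and 5586 and 5101 at 6 h, and Col-0 signals of 8853 and 3424 in mock, 2903 and 1624 at 0 h, 2444 and 2237 at 2 h and 380.0 and 314 at 6 h. In slr-1 its 6 h level was still above that of Col-0 at 0 h.

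At the low end, 8 members were at or below a signal of 218 on all 6 slr-1 arrays. In Col-0, 7 members were at or below 218 on both 0 h arrays, and their fall at 6 h was required by the rule. Whether dim levels limited the falls in slr-1 was not tested. Of the 94 members with both slr-1 0 h arrays above 218, 21 were lower and 5 higher at 6 h, and of the 11 with both at or below it none passed. Over all tested probe sets, 6.26% were called lower and 7.96% higher. The split reuses the slr-1 0 h arrays, against which the 6 h change was tested, so its direction is partly built in. The filter was met through slr-1 at 0 h alone by 3 members, XTH19 among them, and none of the 3 was called. A probe set with no gene in the annotation table had slr-1 signals of 11.0 and 15.9 at 0 h, 13.4 and 12.8 at 2 h and 8.9 and 5.0 at 6 h. Its Col-0 signals were 3666 and 5209 in mock, 2142 and 1006 at 0 h, 2330.2 and 734 at 2 h and 943 and 135 at 6 h. A further unnamed probe set was likewise near zero in slr-1, with 9.2 and 7.2 at 0 h and 11.0 and 7.4 at 6 h, and uneven in Col-0, with 1129 and 358 at 0 h and 945 and 30.3 at 6 h. It is the only member whose Col-0 6 h and 0 h arrays overlapped.

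**Figure D4:**
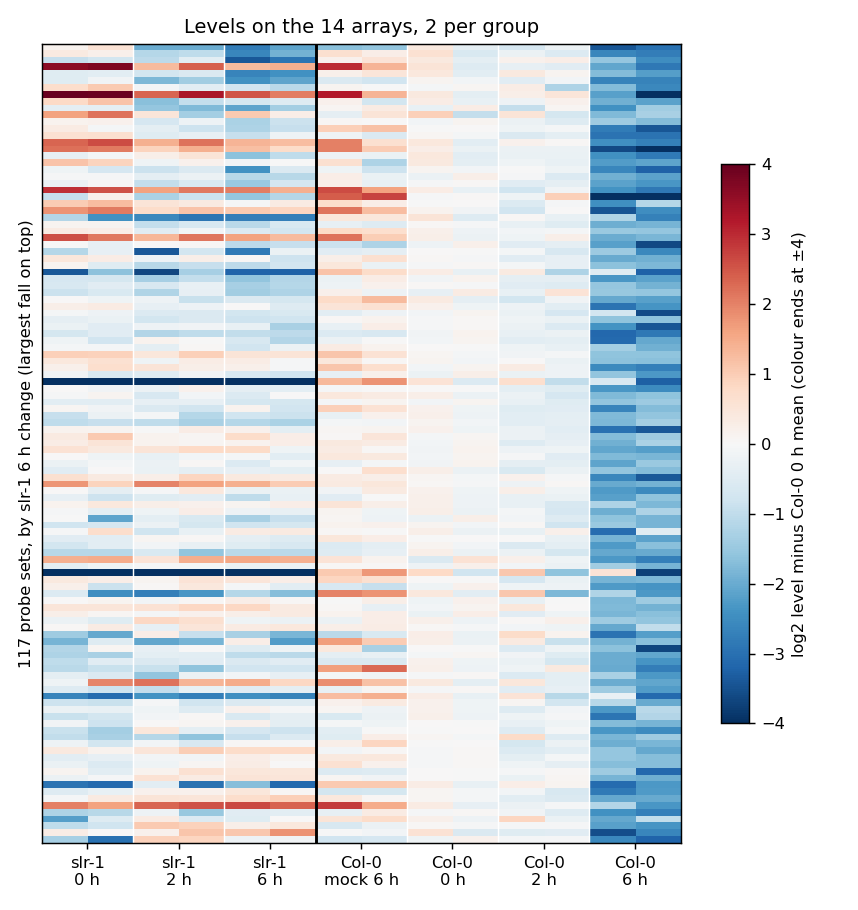
Levels of the 117 members (rows) on the 14 arrays (columns, 2 per group), as log2(signal + 19) minus the Col-0 0 h mean of that probe set. Rows run from the largest fall in slr-1 at 6 h (-2.79, top) to the largest rise (1.98, bottom), and the black line separates slr-1 from Col-0. The Col-0 6 h columns are blue because the rule required a low group mean. The exception is 1 array of the unnamed probe set whose Col-0 6 h and 0 h arrays overlapped. The slr-1 columns are mostly pale, and a few rows are strongly red or blue on all 6 slr-1 arrays.

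The 461 probe sets that met the same 6 h conditions but were already below -0.5 at 2 h in Col-0 served as the nearest comparison. In slr-1 after 6 h, 21 of 117 late-only members were lower (17.9%), against 166 of 461 (36.0%) of the earlier ones, and 6 were higher (5.13%), against 10 (2.17%). The median slr-1 change was -0.20, against -0.57 for the earlier ones. The slr-1 median was 10.1% of the Col-0 median for the late-only members, against 24.7% for the earlier ones. Both sets were chosen by their Col-0 falls, so both shares are partly built in. They do not measure how much of the response slr-1 kept. A slr-1 change within 0.5 of zero was found for 54.7% of the late-only members, 38.2% of the earlier ones and 71.6% of all tested. At 2 h in slr-1, 9 late-only members were lower (7.69%), against 155 of the earlier ones (33.6%). The difference between the 2 sets was not tested, and the earlier set also had a larger Col-0 median at 6 h, -2.31, against -1.97.

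**Figure D5:**
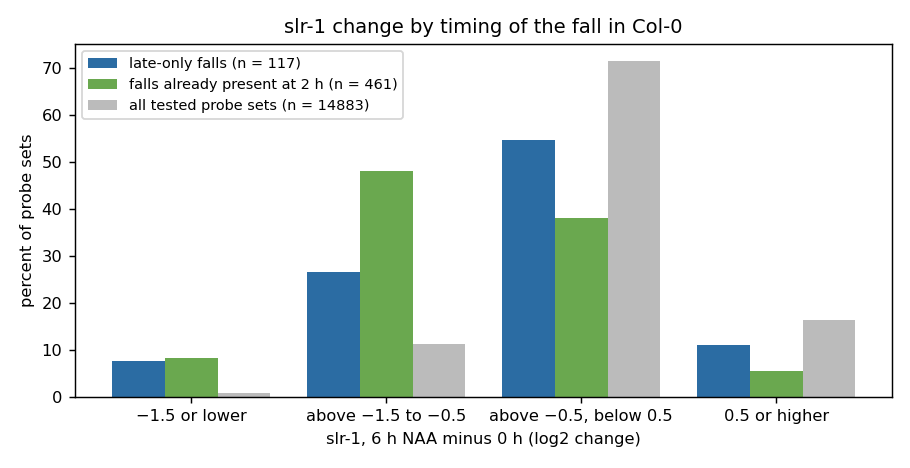
Percent of probe sets by log2 change in slr-1 after 6 h of NAA, for the late-only falls (n = 117, blue), the falls already present at 2 h in Col-0 (n = 461, green) and all tested probe sets (n = 14883, grey). Between -1.5 and -0.5 lie 26.5% of the late-only falls, against 48.2% of the earlier ones and 11.2% of all tested. Changes of 0.5 or more make up 11.1%, against 5.4% and 16.4%.

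Gene lists that could be matched by symbol held few members. Of 35 tested UDP-glycosyltransferases 1 was a member (UGT85A4), and in slr-1 at 6 h 14 of the 35 were called higher and none lower, where 7.96% of all tested were called higher and 6.26% lower. Of 22 tested cell wall genes 2 were members (PMEPCRF and XTH19), and 3 were higher and none lower in slr-1. The lists of 4 class III peroxidases, 9 cytochromes P450, 2 aliphatic glucosinolate genes, 24 transporters, 30 transcription factors and 9 nuclear photosynthesis genes, matched by symbol alone, held no member. These zeros do not cover genes named only by locus, such as the peroxidase AT4G33420, the transporter family genes AT4G00910 and AT3G56200, and AT2G31790 of glucosinolate synthesis, or symbols outside the patterns searched, such as AGL21 and tny. Of the 9 photosynthesis genes, 5 were among the earlier falls, which made up 461 of the 14883 probe sets tested. In slr-1 at 6 h, 3 of the 9 were called lower, where 6.26% of all tested were. The lists for dirigent and lipid transfer proteins and for protein kinases matched no symbol, so members of those families, too, were recognised by locus.

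Of 41 cell type markers, only 3 had a named probe set. The root hair expansin EXPA7 had slr-1 signals of 77.7 and 40.2 at 0 h and 96.5 and 50.4 at 6 h, and Col-0 signals of 285 and 79.6 at 0 h and 215 and 54.5 at 6 h. EXPA18, also of root hairs, had slr-1 signals of 142 and 22.4 at 0 h and 128 and 76.7 at 6 h, and Col-0 signals of 433 and 331 at 0 h and 510 and 257 at 6 h. In Col-0 mock, EXPA7 had 547 and 502, and EXPA18 had 660.3 and 772. Arrays at 6 h of NAA overlapped those at 0 h for both genes in both genotypes, but in Col-0 both 6 h NAA arrays lay below both mock arrays for each gene, as they did for the members. The part of root hair cells in the members' values against mock was not tested. The light-harvesting gene LHCB4.2, a marker of green shoot tissue, had slr-1 signals of 294 and 466 at 0 h, 90.8 and 136 at 2 h and 81.0 and 114 at 6 h. In Col-0 it had 784 and 514 in mock, 1564 and 1694 at 0 h, 253 and 191 at 2 h and 44.2 and 25.9 at 6 h. It was low by 2 h in both genotypes. The part of green tissue in the members' values was not tested. Markers of endodermis, phloem, xylem, root cap and dividing cells had no named probe set and were not analysed here.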

How the data were processed

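The deposited table holds 1 unlogged signal intensity per probe set and array, which the authors made with the MAS5.0 algorithm, per the submitters' processing notes. Software settings and scaling target are not given in the sources used here. No genome build is named. The 14 columns were matched to samples by title, and the number of unused columns of sample values was 0. Of 22810 probe sets, 64 controls were left out. Precision is limited by 2 arrays per group.

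Intensities were logged as log2(signal + 19), where 19 is close to the pooled 10th percentile and 218 close to the 40th. No further normalization was applied. A model with 1 mean for each of 7 groups was fitted to all 14 arrays in limma 3.58.1 (R 4.3.3), with moderated variances following the mean signal, and p-values were adjusted by the Benjamini-Hochberg method over 14883 probe sets. Tables were made with pandas 2.3.3 in Python 3.11.15, and the fit was tested on simulated data. An exact permutation test of 2 arrays against 2 cannot pass the threshold of 0.05 and was not used.

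Comparisons of Col-0 arrays, and of slr-1 with Col-0, share arrays with the rule that chose the members and are given without a test. The members, gene lists and naming rule were chosen with earlier results of these data known. Among members with 1 gene, those named with values are the 12 largest falls in Col-0, the largest slr-1 calls (5 in each direction at 6 h, 3 elsewhere), those nearest zero in slr-1, and members of the lists. Further genes were named after their values were seen, for their role. Gene names come from the platform annotation, updated through RefSeq (TAIR10.1). Sequences and promoters were not analysed here. Alternatives varied the added value, the dim-probe filter, the normalization, the arrays in the fit, the variance model, the replicate block and the size limits of the rule, and left out each array. Replicate numbers were not taken to pair the samples: same-numbered slr-1 arrays deviated together with correlations of 0.06 to 0.13.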

Additional observations from a re-analysis of the deposited data

Results flagged for a closer look

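In 13 genes every slr-1 array at 6 h of NAA lay above every slr-1 array at 0 h, while every Col-0 array at 6 h lay below every Col-0 array at 0 h. The difference between the genotypes was not tested, because the Col-0 values had chosen the members. The slr-1 log2 change at 6 h was 1.98 for AT3G17110, 1.28 for scpl31, 1.25 for AT2G44300 and 1.14 for AT4G02090, and of these AT4G02090 did not pass the threshold in slr-1. Its slr-1 0 h arrays were uneven, at 33.0 and 148, and leaving out 1 array gave values of 0.296 to 1.982. It was 0.68 for AT5G09760 and 0.63 for AT2G46600, which both passed. For the other 7 the slr-1 value was small and did not pass, at 0.39 for AT4G16980, 0.33 for AT5G04000, 0.29 for AT1G30750, 0.26 for AT5G41870, 0.21 for RALFL32, 0.14 for AT5G63710 and 0.03 for AT5G57345. Counting probe sets without a single gene, 25 members were separated in opposite directions in this way, and 6 of them were called higher in slr-1. In slr-1, 28.1% of all probe sets tested had 6 h arrays wholly above 0 h, a larger share than the 25 of 117 members. The Col-0 separation held for 116 of the 117 members and follows largely from the rule.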

How the results depend on the processing

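The number of members was 424 with a fall limit of -1 and 40 with -2, and 47 with a 2 h band of 0.25 and 226 with 0.75. It lay between 84 and 145 under the other scales and filters and between 104 and 138 without single Col-0 arrays. Leaving out 1 array gave 14 to 26 members lower and 2 to 7 higher in slr-1 at 6 h against 0 h, 3 to 10 lower and 4 to 9 higher at 2 h, and 2 to 6 lower and 0 higher at 6 h against 2 h. The members' median change in slr-1 then ranged from -0.281 to -0.147 at 6 h and from -0.153 to 0.002 at 2 h. Fitting only the groups compared gave 4 members higher at 2 h, where 663 of all 14883 tested were. At 6 h against 2 h, 3 members were lower without the filter, where 94 of 22746 were. Without the variance trend 3 were, where 48 of 14883 were. With the replicate number as a block, 23 members were lower and 5 higher at 6 h, where 915 and 1147 of all tested were. The block gave 9 and 7 at 2 h, where 799 and 990 were, and 3 and 0 at 6 h against 2 h, where 109 and 64 were. The cause of these shifts was not tested. In the alternatives run, no named gene changed sign while past the threshold. With 2 arrays per group and 50 members dim in Col-0 at 6 h, small changes of dim genes could not be resolved.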
